A study of Homo sapiens with 4 samples.

Results

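Lysosomes are acid compartments in which cathepsins, glycosidases and lipid hydrolases break down cargo, and a proton pump, the V-ATPase, keeps them acid. Autophagy encloses cytoplasm in a double membrane that carries ATG8 family proteins and then fuses with the lysosome. The related transcription factors TFEB, TFE3 and MITF bind E-box elements in the promoters of many of these genes, and in pigment cells the same traffic routes also make melanosomes. Expression of 44 such genes was read in M14, an established human melanoma cell line. Members were the genes of a list, fixed with earlier results of these data known, that an Affymetrix probe set names alone. That held for 43 of the 44, through 99 probe sets, among 19775 genes with a probe set in all. GLB1, which encodes beta-galactosidase, had only a probe set shared with another gene and has no value here.

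Each of the 4 groups had 1 array. They were the line with FLAG-tagged ARHGAP8 in pIRES2 grown in 3D, the empty-vector (pIRES2) line in 3D, the ARHGAP8 line in 2D and the empty-vector line in 2D. In 3D, cells were embedded in growth factor-reduced Matrigel, and in 2D they grew on plastic coated with type I collagen. All cultures held G418 and lasted 4 days. Both lines were stable transfectants sorted for eGFP. Each plasmid had a single line, so its effect and a difference between 2 selected cell populations cannot be told apart. Values are MAS5 signals, a linear intensity per probe set. Signals under 72.3, the median of all values, were set to that floor before log2 was taken, and the 41 of 43 genes that exceeded it on 2 or more arrays entered the test. This was limma's additive model of culture and plasmid over 13239 genes, and every adjusted p below is its Benjamini-Hochberg value over them. Differences are on the log2 scale. The model's standard error (SE) is moderated over genes and rests on 1 residual degree of freedom. That residual is the difference between the lines in their 3D to 2D ratio. It mixes array noise, variation between cultures and any real difference of that ratio, and without replicate cultures these cannot be told apart.

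The arrays differed in ways that touch the 3D to 2D ratios and the ratios between the lines in 3D. On the ARHGAP8 3D array the median signal of the 18S ribosomal RNA control probe sets was 626, against 27.7 to 49.4 on the other arrays. For 28S it was 1390, against 94.4 to 119. For ACTB, the 3' probe set over the 5' one, a measure of RNA quality, gave 1.32 and 1.23 in 3D in the ARHGAP8 and empty-vector lines, against 1.05 and 1.10 in 2D. For GAPDH the same ratio was 0.925 and 0.901 in 3D against 0.899 and 0.874 in 2D, a smaller gap. The part of these differences in the results was not tested. The 4 probe sets of ARHGAP8 itself also name a readthrough gene and read 4.02 to 14.8, under the floor, so they do not check the labels. Of 7 melanocyte markers measured, 6 were above the floor on all arrays and PMEL on none. None of 5 macrophage markers was above it on all arrays, and their highest signal was 83.5. Of the other markers, 3 of 6 fibroblast, 2 of 6 epithelial and 1 of 4 endothelial genes were above the floor on all arrays, with KRT18 the highest at 944. The summed epithelial signal was 694 and 577 in 3D, against 1170 and 974 in 2D, and its part in the culture results was not tested. KRT18 carried that sum, while KRT8, the other epithelial marker above the floor, read 156 and 167 in 3D against 128 and 119 in 2D.

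Promoter sequences are shown first because the E-box core that TFEB and its relatives bind lies in front of several members. RefSeq promoter windows (GRCh38.p14, 250 bases before to 50 after the start) were matched for 32 of the 44 genes. CACGTG was present in 9 of the 32 (28.1%), against 8.77% of all 27305 genes with a window. TCACGTGA, which contains it, was present in 6 (18.8%, against 1.18%), and TCATGTGA or its complement TCACATGA in 2 (6.25%, against 1.24%). Both strands were searched. A match describes these letters and shows no binding. Such elements are known in the promoters of many of these genes, so the shares describe the list and are no test. Below are stretches upstream of the start, 5' to 3' on the gene's strand, with the 8-letter matches in capitals. CTSA holds a further CACGTG, outside such a match, in lower case. The first 5 hold TCACGTGA and the last 2 hold TCATGTGA or its complement.
MCOLN1: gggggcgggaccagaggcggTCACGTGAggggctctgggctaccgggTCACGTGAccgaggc
GAA: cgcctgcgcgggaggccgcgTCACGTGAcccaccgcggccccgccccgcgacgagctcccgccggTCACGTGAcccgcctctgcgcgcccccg
LAMP1: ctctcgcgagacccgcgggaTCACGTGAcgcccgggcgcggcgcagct
CTSA: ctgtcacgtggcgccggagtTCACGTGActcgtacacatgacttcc
ATP6V0D1: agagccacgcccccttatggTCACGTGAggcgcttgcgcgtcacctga
GPNMB: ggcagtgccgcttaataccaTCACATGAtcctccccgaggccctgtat
TPP1: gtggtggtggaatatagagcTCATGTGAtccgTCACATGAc

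The stretches lie at chr19:7522562-7522623 (plus strand) for MCOLN1, chr17:80101484-80101576 (plus) for GAA, chr13:113297190-113297237 (plus) for LAMP1 and chr20:45891289-45891334 (plus) for CTSA. Those of ATP6V0D1, GPNMB and TPP1 lie at chr16:67481190-67481237 (minus), chr7:23246692-23246739 (plus) and chr11:6619423-6619463 (minus). In MCOLN1 the matches begin 42 and 15 bases before the start, and in GAA 77 and 32 bases before it. CLN3 is the sixth gene with TCACGTGA, in a match that does not lie wholly before the start and is not printed. The additive 3D minus 2D differences of these 6 genes were -1.25 for MCOLN1, -0.60 for CLN3, -0.34 for ATP6V0D1, -0.05 for CTSA, 0.29 for LAMP1 and 0.53 for GAA, on the log2 scale. These values lay on both sides of 0, and no relation to the motif was tested. Of the 6 MCOLN1 alone passed the test, which it entered through its 2D arrays alone. GPNMB and TPP1, with the other element, stood at 0.71 and 0.57, of which GPNMB passed. WIPI1, the other member that rose, held none of the 3 motifs in its window.

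The first comparison asked how growth in gel differed from growth on plastic. GPNMB and WIPI1 rose in 3D, by 1.63-fold and 1.62-fold, MCOLN1 fell at least 2.38-fold, and 38 of the 41 tested members did not pass. MCOLN1 was under the floor on both 3D arrays and was admitted to the test by its 2D signals alone, so its call is no support for the count. Over all 13239 genes, 2.83% passed as higher in 3D and 4.15% as lower, or 6.99% in either direction, so the members' 2 and 1 of 41 were near the background. The same 3 genes were the members at least 1.5-fold apart the same way in both lines, where 2.62% of all genes were higher and 2.71% lower. In the ARHGAP8 line alone 5 members were at least 1.5-fold higher in 3D and 2 lower, against 9.5% and 8.46% of all genes. In the empty-vector line 7 were higher and 2 lower, against 8.58% and 7.07%. At an unadjusted p under 0.05 there were 13 of the 41 members (31.7%), against 21.0% of all genes. The median 3D minus 2D difference of the tested members was 0.12 log2, against 0.03 for all genes tested. In single ratios it was 0.00 in the ARHGAP8 line and 0.12 in the empty-vector line, against 0.04 and 0.01 for all genes.

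**Figure D1:**
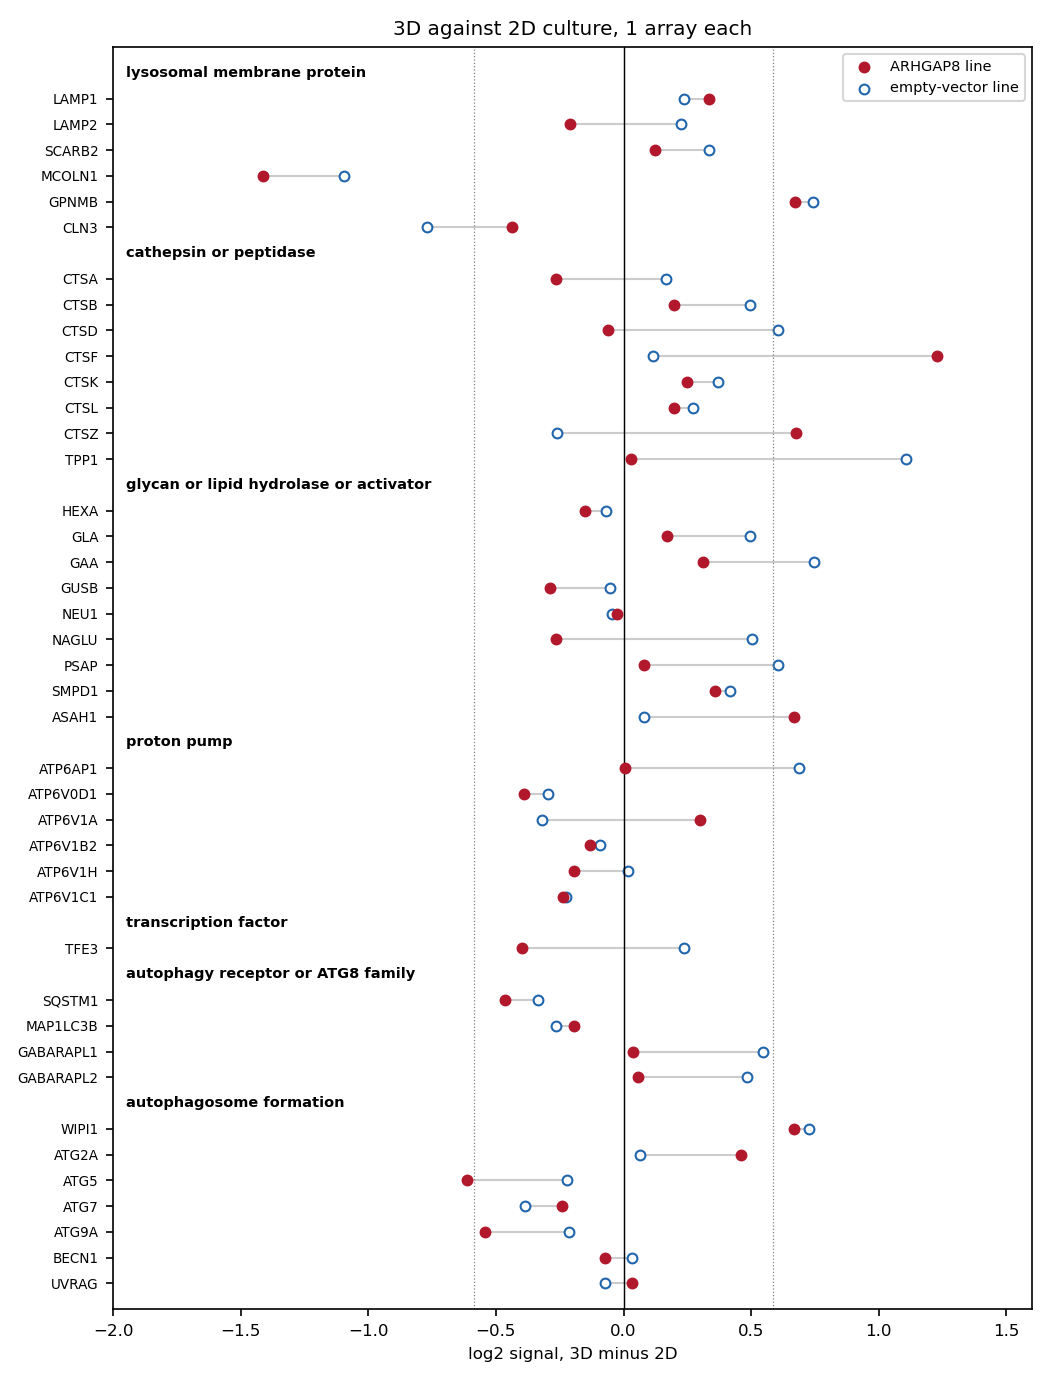
Log2 signal in 3D minus that in 2D (x axis) for the 41 tested genes, grouped by role, in the ARHGAP8 line (filled red points) and the empty-vector line (open blue points), 1 array per value; a grey bar joins the lines and dotted lines mark 1.5-fold. GPNMB and WIPI1 lie beyond the right dotted line in both lines and MCOLN1 beyond the left one, while TPP1 and CTSF are far apart between the lines.

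GPNMB encodes a transmembrane glycoprotein of melanosomes and lysosomes. Its signal was 4856 and 5944 in 3D in the ARHGAP8 and empty-vector lines, against 3047 and 3553 in 2D. Both 3D arrays were above both 2D arrays. GPNMB rose by 0.71 ± 0.19 log2 over the 4 arrays (moderated SE, limma adjusted p 0.0236). Its other probe set read 2438 and 2344 in 3D against 1070 and 1031 in 2D, a difference of 1.19, so both probe sets were higher in 3D in both lines. The summed signal of the 7 melanocyte markers was also higher in 3D, at 8495 and 8774 against 5169 and 7918, and its part in the GPNMB difference was not tested. Its members did not all go that way: SOX10 was lower in 3D in both lines (-0.51 and -0.18), S100B had opposite signs and PMEL was under the floor. Summed macrophage markers, whose cells also make GPNMB, were 168 and 161 in 3D against 166 and 215 in 2D, and CD14, CD163 and PTPRC were under the floor on all arrays.

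MCOLN1 encodes mucolipin-1, the calcium channel of the lysosomal membrane. Its signal was 63.2 and 52.5 in 3D in the ARHGAP8 and empty-vector lines, both under the floor, against 193 and 154 in 2D. Signals in 3D were thus at least 2.67-fold lower in the ARHGAP8 line and at least 2.13-fold lower in the empty-vector line. The fitted difference was -1.25 ± 0.24 log2 (adjusted p 0.00296 by limma). MCOLN1 entered the test through its 2D arrays alone, so a gene admitted that way had to differ, and no other probe set names it alone.

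The other membrane proteins did not pass. LAMP1, an abundant glycoprotein that lines the lysosome, read 2613 and 2258 in 3D against 2071 and 1918 in 2D, a difference of 0.29 ± 0.17 log2. Another probe set of LAMP1 was lower in 3D in both lines, at 224 and 312 against 360 and 386, so the gene has no single direction. The difference was 0.01 for LAMP2, which also serves chaperone-mediated autophagy, and 0.23 for SCARB2, the sorting receptor of glucocerebrosidase. Another SCARB2 probe set was lower in 3D in both lines, at -0.13, and its remaining ones were higher on average. CLN3, mutated in juvenile neuronal ceroid lipofuscinosis, read 190 and 183 in 3D against 257 and 312 in 2D. Both 3D signals were lower, at -0.60 ± 0.23 log2 and an adjusted p of 0.120 by limma, and its second probe set read 98.4 and 175 against 153 and 149, so there the 3D and 2D arrays overlapped. The main probe set of CLN3 is of a type (suffix x) whose probes can match other transcripts, as is that of ASAH1.

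Cathepsins and other lysosomal peptidases gave no call for the culture among 8 tested. Of the 8 differences 7 were above 0, with a median of 0.29 log2, against 54.3% above 0 and a median of 0.03 for all genes, and no test of the group was made. The lowest adjusted p was 0.0890 by limma, for TPP1. CTSB, a cysteine protease, read 706 and 841 in 3D against 616 and 597 in 2D, and was higher in both lines. CTSL, CTSK and CTSB were higher in 3D in both lines on the probe set used, by 0.23, 0.31 and 0.35 log2 on average. A dimmer CTSB probe set was at -0.12 in the ARHGAP8 line and 0.34 in the empty-vector line. The remaining CTSB probe sets were higher in both. CTSA, the protective protein of neuraminidase, stood at -0.05, the carboxypeptidase CTSZ at 0.21 and the aspartic protease CTSD at 0.27, each with opposite signs in the lines.

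TPP1 and CTSF were the members whose culture ratio differed most between the lines, each by over 1 log2, as 4.14% of all genes did. With 1 array per group this contrast could not be tested. TPP1, a peptidase lost in late infantile neuronal ceroid lipofuscinosis, read 858 and 2065 in 3D in the ARHGAP8 and empty-vector lines, against 840 and 959 in 2D. The empty-vector 3D array alone was high, so 3D was 2.15-fold above 2D in the empty-vector line and 1.02-fold above it in the ARHGAP8 line. A further probe set read 735 and 1298 in 3D against 722 and 872 in 2D, and another 236 and 530 against 289 and 483. Both had their highest value on that array, though in the last the empty-vector 2D array came close, and 1 more was under the floor throughout. For CTSF, a papain family cathepsin with 1 probe set, the 2D array of the ARHGAP8 line stood apart instead: its signals were 349 and 336 in 3D, against 149 and 309 in 2D. Its 3D minus 2D difference was 1.23 log2 in the ARHGAP8 line and 0.12 in the empty-vector line.

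Of the 9 tested glycosidases, lipid hydrolases and activators none passed for the culture, and 6 differences (66.7%, against 54.3% of all genes) were above 0, with a median of 0.33 log2. GAA, the acid alpha-glucosidase lost in Pompe disease, was at 0.53 ± 0.25 log2 and SMPD1, the acid sphingomyelinase, at 0.39 ± 0.18. PSAP, the precursor of the saposin activators, read 2270 and 3209 in 3D against 2150 and 2110 in 2D, and its other probe set read 1481 and 2481 against 1512 and 1742. The empty-vector 3D array was the highest for both, while the ARHGAP8 3D array was above both 2D arrays on the first probe set and below both on the other. ASAH1, acid ceramidase, was at 0.37 and GLA, alpha-galactosidase A, at 0.33, both higher in each line on the probe set used. Another ASAH1 probe set was at 1.13 in the ARHGAP8 line and -0.07 in the empty-vector line. The remaining ASAH1 probe sets above the floor were higher in both. NAGLU, which degrades heparan sulphate, was at 0.12 with opposite signs in the lines. HEXA, NEU1 and GUSB stood at -0.11, -0.04 and -0.17, lower in each line on the probe set used. The other HEXA probe sets above the floor had opposite signs in the lines.

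Of the 6 proton pump genes none passed. The additive difference was below 0 for 5 of them, with a median of -0.10 log2, against 45.7% of all genes below 0. In each single line 4 of the 6 were lower in 3D. ATP6V0D1, a subunit of the membrane sector, read 938 and 961 in 3D against 1228 and 1179 in 2D. Both 3D arrays were below both 2D arrays, at -0.34 ± 0.16 log2 and an adjusted p of 0.213 by limma. ATP6V1C1, ATP6V1B2, ATP6V1H and ATP6V1A, subunits of the peripheral sector that hydrolyses ATP, stood at -0.23, -0.11, -0.09 and -0.01. ATP6V1H and ATP6V1A had opposite signs in the lines. The other probe set of ATP6V1A was lower in 3D in both, at 460 and 398 against 604 and 598. ATP6AP1, an accessory subunit, was at 0.35, which came from the empty-vector line alone (0.69, against 0.00 in the ARHGAP8 line).

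Of the transcription factors, TFEB could not be read. Its probe sets gave 16.8 to 47.3 on the 4 arrays, under the floor, and so did that of ULK1, the kinase that starts autophagy, at 9.28 to 14.3. TFE3 read 250 and 232 in 3D against 329 and 197 in 2D, with no order by culture.

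Among ATG8 family members and receptors, none of 4 passed for the culture. SQSTM1, the p62 receptor that binds ubiquitin and is itself degraded by autophagy, read 1239 and 1404 in 3D against 1711 and 1772 in 2D. It was lower in both lines, by -0.40 ± 0.16 log2, without passing (adjusted p 0.144 by limma). The only other SQSTM1 probe set above the floor stood at 0.09 in the ARHGAP8 line and -0.62 in the empty-vector line. MAP1LC3B, the LC3 protein used as a marker of autophagosomes, was at -0.23, with 607 and 597 in 3D against 695 and 717 in 2D. Its other probe set, at 428 and 653 against 493 and 493, did not repeat that order. GABARAPL1 and GABARAPL2, of the other ATG8 branch, were at 0.29 and 0.27, mostly from the empty-vector line.

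WIPI1, which binds phosphatidylinositol 3-phosphate on the forming autophagosome, was the 1 autophagy gene of the list that rose. Its signal was 673 and 807 in 3D in the ARHGAP8 and empty-vector lines, against 424 and 488 in 2D, and the groups did not overlap. The difference was 0.70 ± 0.17 log2 (adjusted p 0.0126 by limma). The other probe set read 850 and 742 in 3D against 351 and 407 in 2D, at 1.07 log2. Each of the probe sets of WIPI1 and GPNMB passed when every probe set was fitted on its own. Both calls were lost without the filter on dim genes, with the mean of the probe sets and without the intensity trend, where the adjusted p by limma was 0.572, 0.0781 and 0.0760 for GPNMB and 0.475, 0.0843 and 0.0795 for WIPI1.

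The other genes of autophagosome formation did not pass. ATG5, which joins the complex that attaches ATG8 proteins to lipid, read 267 and 295 in 3D against 408 and 343 in 2D, at -0.42 log2. A second probe set of ATG5 was also lower in 3D, at 222 and 224 against 319 and 285. Yet another was higher, at 127 and 123 against 74.7 and 98.6, so the gene has no single direction. ATG9A, the membrane protein of autophagosome seeds, and ATG7, the enzyme that activates ATG8 proteins, were at -0.38 and -0.31, lower in both lines, though a dimmer probe set of ATG7 stood at 0.10. The lipid transfer protein gene ATG2A was at 0.26. BECN1 and UVRAG, of the phosphatidylinositol 3-kinase complex, both stood at -0.02. Over the list, 22 genes had several probe sets above the floor on at least 2 arrays, and in 15 of them all went the same way for the culture.

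**Figure D2:**
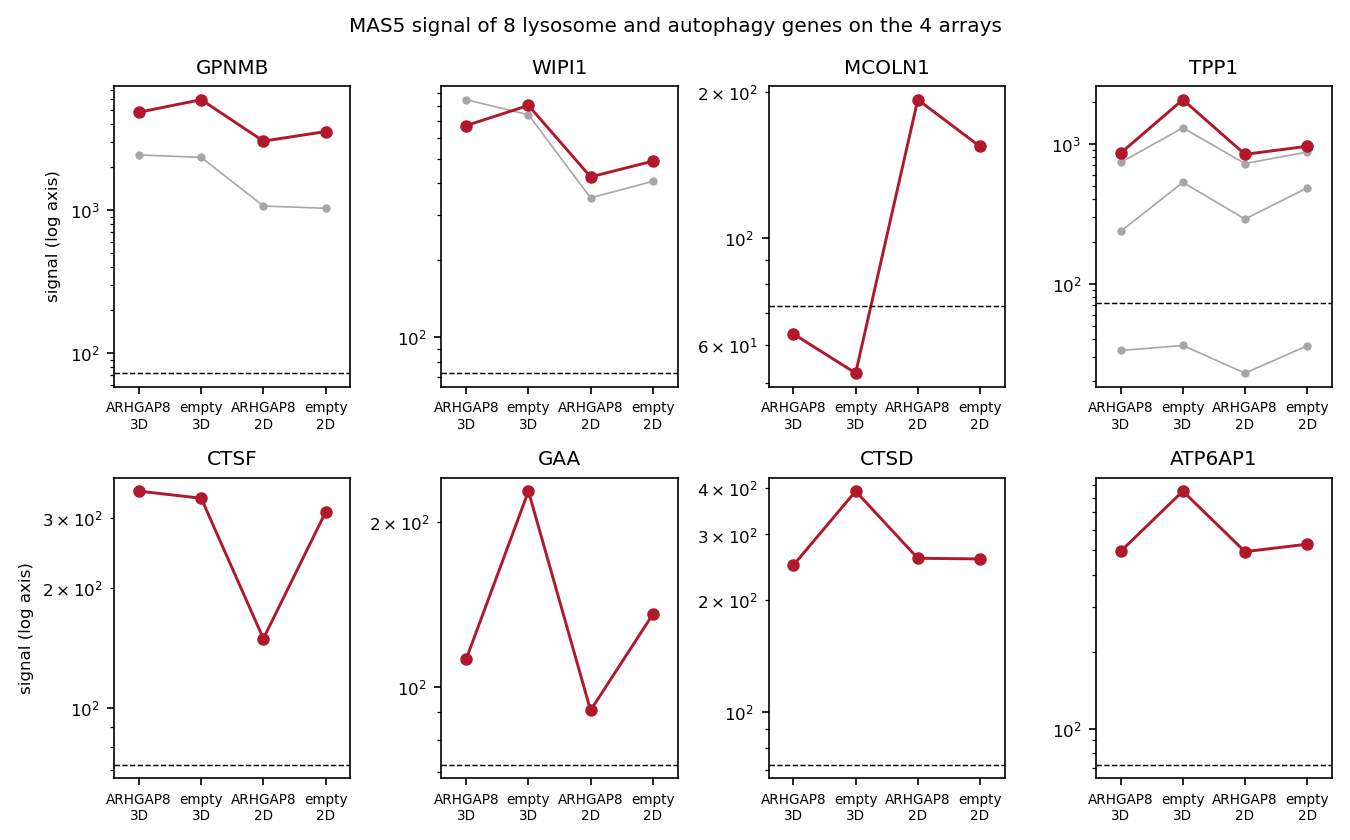
MAS5 signal (log axis) of 8 genes on the ARHGAP8 3D, empty-vector 3D, ARHGAP8 2D and empty-vector 2D arrays. Red points are the probe set used, grey points other probe sets of the gene, lines join 1 probe set and the dashed line is the floor of 72.3; GPNMB and WIPI1 are higher on both 3D arrays, MCOLN1 is under the floor there, and TPP1, CTSD and ATP6AP1 are highest on the empty-vector 3D array.

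The second comparison asked how the line with ARHGAP8 differed from the empty-vector line. No member passed the limma test, none of 41, and 4 had an unadjusted p under 0.05 (9.76%, against 8.14% of all genes). Over all genes 0.068% passed as higher and 0.0604% as lower, or 0.128% in either direction, so 0 of 41 is near the background. On the probe set used, no member was at least 1.5-fold apart the same way in both cultures, as 0.347% of all genes were higher and 0.461% lower. GAA fell just short, at 2.02-fold lower in the ARHGAP8 line in 3D and 1.495-fold lower in 2D. The median difference of the tested members was -0.12 log2, against 0.00 for all genes. It was -0.16 in 3D and -0.03 in 2D.

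In gel the members leaned to lower signals in the ARHGAP8 line. Of the 41, 27 were lower there and 13 higher (65.9% and 31.7%, against 48.8% and 50.3% of all genes), with 1 at the floor on both arrays. On plastic 21 were lower and 20 higher (51.2% and 48.8%, against 50.1% and 47.5% of all genes). In 3D, 5 members were at least 1.5-fold lower and 0 higher, against 7.24% and 5.8% of all genes, and in 2D 1 was lower and 1 higher, against 2.88% and 2.19%. Of the members' 79 probe sets above the floor on at least 2 arrays, 54 were lower in the ARHGAP8 line in 3D (68.4%, against 49.5% of 23095 probe sets). In 2D 45 were lower (57.0%, against 49.3%). This recounts the same genes on the same arrays. Of the 22 genes with several such probe sets, 9 had probe sets that went both ways between the lines. Of the other pathway genes tested, described below, 61.5% were lower in the ARHGAP8 line in 3D and 60.6% in 2D. The shares of all genes were 48.8% and 50.1%. All 3D ratios between the lines use the array with raised ribosomal RNA signals, and no test of the lean across replicates exists in this design.

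The 5 members lower in 3D are named here after their values were seen. The TPP1 difference was -1.27 log2 in 3D and -0.19 in 2D, an average of -0.73 ± 0.20 with an adjusted p of 0.163 by limma. A further TPP1 probe set stood at -0.82 in 3D and -0.27 in 2D. Another stood at -1.16 and -0.74, at least 1.5-fold lower in both cultures, so the gap was not in 3D alone on every probe set. GAA read 113 in the ARHGAP8 line against 228 in the empty-vector line in 3D, and 90.8 against 136 in 2D. It was lower in both cultures, at -0.80 ± 0.25 log2 and an adjusted p of 0.277 by limma. CTSD read 248 in the ARHGAP8 line against 392 in the empty-vector line in 3D, and 259 against 258 in 2D. For ATP6AP1 the signals were 494 against 848 in 3D and 492 against 526 in 2D, and for NAGLU 215 against 330 in 3D and 258 against 233 in 2D. In each of these 5 the empty-vector 3D array held the highest of the 4 signals, which their selection by a low ratio to that array favours.

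On plastic, CTSF was 2.07-fold lower in the ARHGAP8 line, and TFE3, which regulates lysosomal genes, was 1.67-fold higher. In 3D the TFE3 ratio was 1.08-fold, and the other 3 probe sets of TFE3 were each lower in the ARHGAP8 line in both cultures, so its direction rests on 1 probe set. By role, the median differences between the lines, averaged over the cultures, were -0.13 log2 for membrane proteins, -0.21 for peptidases, -0.23 for other hydrolases and activators, -0.04 for the proton pump, -0.06 for ATG8 proteins and receptors and -0.13 for autophagosome formation.

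**Figure D3:**
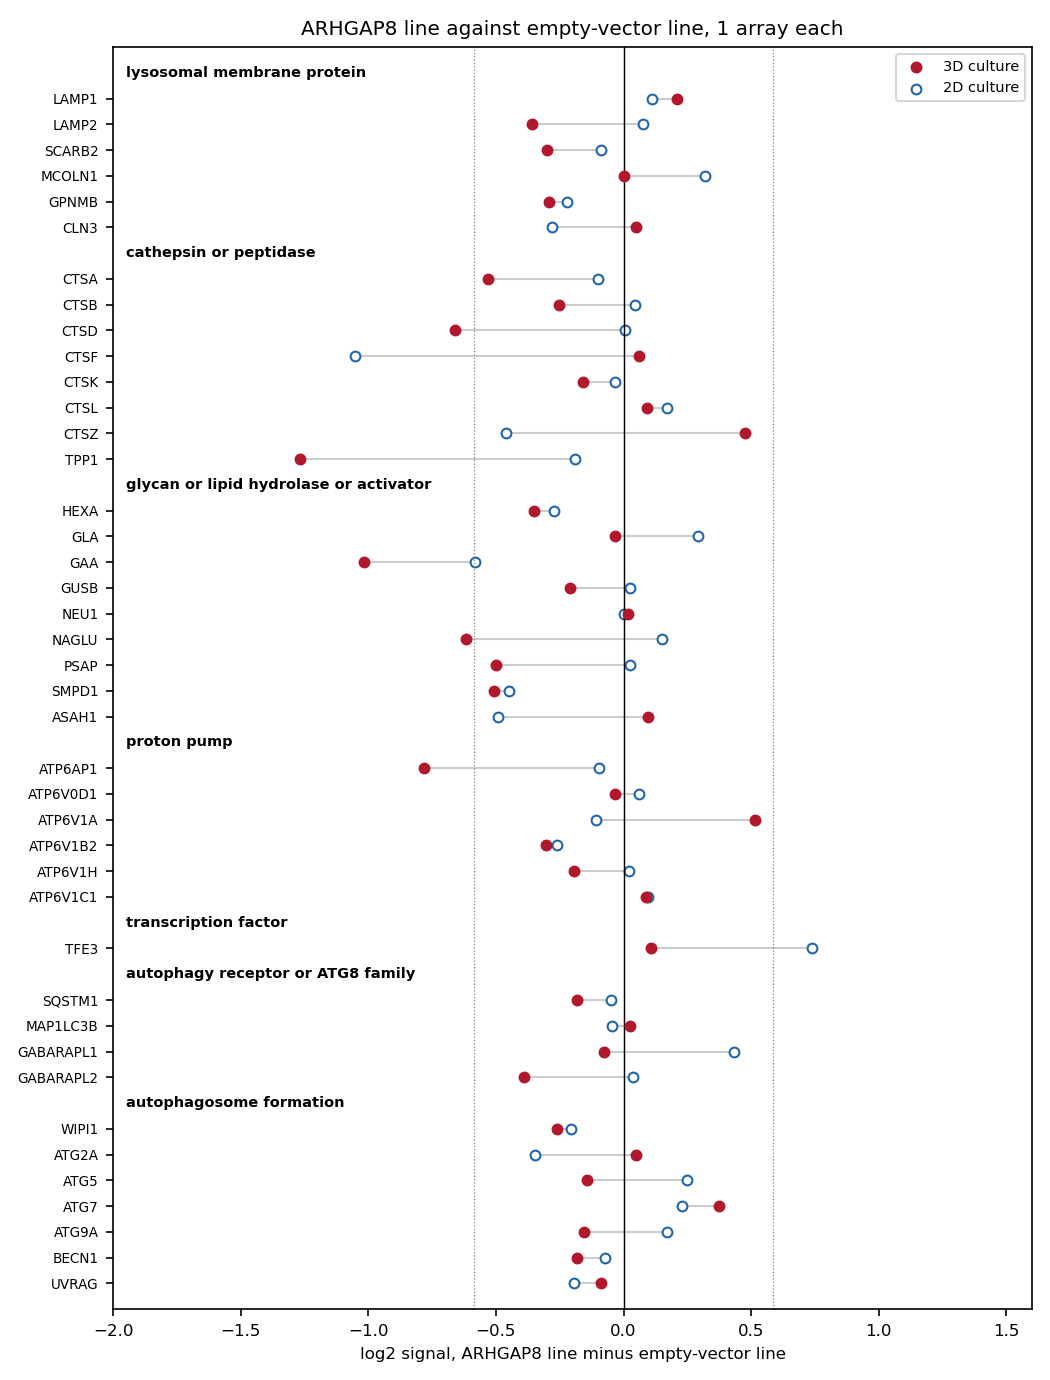
Log2 signal in the ARHGAP8 line minus that in the empty-vector line (x axis) for the 41 tested genes by role, in 3D (filled red points) and in 2D (open blue points), 1 array per value; dotted lines mark 1.5-fold. In 3D 27 of 41 points lie left of 0, among them TPP1, GAA, ATP6AP1, CTSD and NAGLU beyond the dotted line, while in 2D CTSF and TFE3 lie beyond it.

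Other genes of the pathway were counted from lists of 121 further genes, of which 104 were tested. These lists were chosen with earlier results of these data known, so counts beside the background describe them and are no test. For the culture 6 rose and 1 fell, beside the 2.83% and 4.15% of all genes. By list this was 4 rising of 34 tested lysosome genes, 1 of 34 autophagy genes, 1 rising and 1 falling of 17 genes around TFEB and TFE3 control, 0 of 9 proton pump genes and 0 of 10 fusion and positioning genes. For the plasmid 0 of 104 passed in limma, against 0.128% of all genes, with 10 under an unadjusted p of 0.05 (9.62%, against 8.14% of all genes). In the ARHGAP8 line 3 were at least 1.5-fold lower in both cultures and 0 higher, against 0.461% and 0.347% of all genes. MAN2B1, 1 of these 3, was under the floor on both ARHGAP8 arrays and entered the test through the empty-vector arrays alone.

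The 4 lysosome genes included both Niemann-Pick type C genes, which pass cholesterol out of the lysosome. NPC1 read 1288 and 1553 in 3D in the ARHGAP8 and empty-vector lines, against 502 and 549 in 2D, and rose by 1.43 ± 0.16 log2 (adjusted p 7.74e-06 by limma). The other probe set of NPC1 above the floor was also higher in 3D on both arrays, at 0.64. NPC2 read 1402 and 1729 against 1017 and 1033, a rise of 0.60 ± 0.16 (adjusted p 0.0246 by limma). LIPA, the acid lipase that frees cholesterol from its esters, read 875 and 1734 against 615 and 512 and rose by 1.13 ± 0.21 (adjusted p 0.00199 by limma), with ratios of 0.51 in the ARHGAP8 line and 1.76 in the empty-vector line. LGMN, an asparaginyl endopeptidase, read 678 and 667 against 452 and 435 and rose by 0.60 ± 0.17 (adjusted p 0.0330 by limma). For all 4, both 3D arrays were above both 2D arrays.

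OPTN, an autophagy receptor for ubiquitinated cargo, read 522 and 514 in 3D against 304 and 262 in 2D and rose by 0.88 ± 0.18 log2 (adjusted p 0.00562 by limma), with its other probe set at 0.49. MITF, the lineage factor of pigment cells and a relative of TFEB, rose by 0.65 ± 0.18 (adjusted p 0.0277 by limma). Its signals were 2180 and 2393 against 1113 and 1904, and the low ARHGAP8 2D array made the difference in that line (0.97) larger than in the empty-vector line (0.33). The other probe set of MITF above the floor read 1378 and 1698 in 3D against 940 and 1502 in 2D, so there the cultures overlapped. TSC2, a brake on mTOR signalling, fell by 0.81 ± 0.23 (adjusted p 0.0376 by limma). It read 123 and 366 in 3D against 301 and 460 in 2D, so the groups overlapped, and the low value on the ARHGAP8 3D array carried most of the difference (-1.30 in that line, against -0.33 in the empty-vector line).

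**Figure D4:**
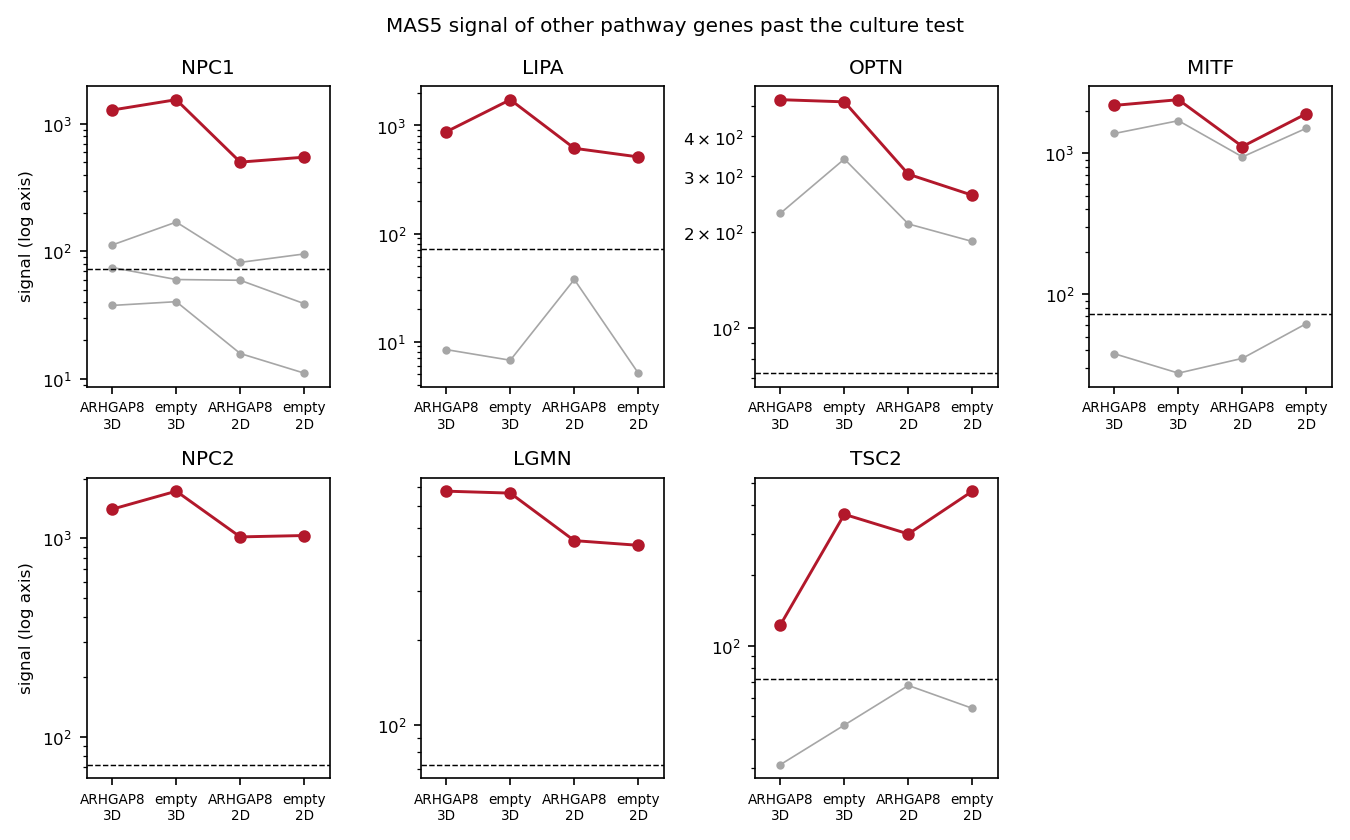
MAS5 signal (log axis) of the 7 other pathway genes past the culture test on the same 4 arrays, with red points for the probe set used, grey points for other probe sets and the dashed line at the floor of 72.3. On the probe set used, NPC1, NPC2, LIPA, LGMN, OPTN and MITF are higher on each 3D array than on each 2D array, and TSC2 overlaps between the cultures.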

How the data were processed

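The authors deposited linear MAS5 signal intensities, 1 for each probe set on each array, per the submitters' processing notes. The MAS5 version and detection calls are not given in the sources used here. All 4 arrays had the same trimmed mean, 150.0, with 2% trimmed from each end. The table held 54675 probe sets, 62 of them controls, and 41091 named 1 gene, 1801 several and 11721 none. Symbols came from the platform annotation, updated through the gene identifier for 41037. The number of arrays, 1 per group, limits the precision.

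Arrays were scaled to a common trimmed mean, floored at the pooled median and log2 transformed. Where several probe sets named a gene alone, the one with the highest mean log2 level stood for it, and the gene was tested when above the floor on at least 2 arrays. limma 3.58.1 (R 4.3.3) fitted culture and plasmid additively and eBayes moderated the variances along an intensity trend. Two-sided p-values were adjusted over 13239 genes by Benjamini-Hochberg, with a threshold of 0.05. Prior degrees of freedom were 19.4. Ratios against a signal at the floor are bounds. The fit was tested on simulated data.

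Members and lists were chosen with earlier results of these data known. Values in every array were given for members past the test, at least 1.5-fold apart the same way in both independent ratios, or with ratios differing by at least 1 log2. Of the other pathway genes those past the test were named. Alternatives were other scalings, floors, filters, probe set rules, no trend, and each array left out.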

Additional observations from a re-analysis of the deposited data

Results flagged for a closer look

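For CTSF the ratio of the ARHGAP8 line over the empty-vector line had opposite signs in 3D and in 2D, at 0.06 and -1.05 log2. The 3D signals, 349 and 336, hardly differed, so the gap was on plastic and no reversal is shown. The difference of these ratios was 1.11, and it was not tested because each group has 1 array.

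The ribosomal RNA control probe sets, outside the genes compared, were brighter on the array of the ARHGAP8 line in 3D than on either array of the empty-vector line. Their medians on it were 626 for 18S and 1390 for 28S.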

How the results depend on the processing

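Of the 3 members called for the culture, GPNMB, WIPI1 and MCOLN1, all were called after quantile and cyclic loess normalization, with the lower floor, without a floor and with every probe set fitted. Members called were 0 without a filter on dim genes and 0 with the mean of the probe sets, with 7 and 8 under an unadjusted p of 0.05 in limma, and 1 (MCOLN1) without the intensity trend. Limited to genes that exceed the floor on each of the 4 arrays there were 3, TPP1 (adjusted p 0.0452 in limma) in place of MCOLN1, which that filter removes. Calls over all genes for the culture went likewise, 925 as fitted, 37 with the mean of the probe sets, 425 without the trend, 555 with quantile normalization, 606 with cyclic loess, and 0 without the filter, with 1876 under an unadjusted p of 0.05. For the plasmid 17 genes were called as fitted, 12 with either other floor, 61 with the stricter filter, 1 without the trend and 0 in the other settings, with 749 to 1688 under an unadjusted p of 0.05. Adjusted p over the alternatives ran from 0.00782 to 0.572 for GPNMB, 0.00698 to 0.475 for WIPI1 and 0.00632 to 0.475 for MCOLN1. No direction of these or of the 7 other pathway genes was reversed in any setting run.

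Other pathway genes called for the culture, 7 as fitted, were 4 after quantile normalization, 11 when each of the 4 arrays had to exceed the floor, 3 without the trend, 3 with every probe set fitted, and 0 without a filter or with the mean of the probe sets. With that mean NPC1 was at 0.52, LIPA at 0.57, MITF at 0.34 and TSC2 at -0.41. For the plasmid 1, TSC2, was called under that stricter filter. The members' median for the culture was 0.0075 without a filter, which adds TFEB and ULK1 at the floor, and 1 member in place of 2 had ratios 1 log2 apart with the mean of the probe sets, where TPP1 fell short. The cause of the other changes was not tested. With 1 array left out a value rests on 1 pair and has no test. The members' median then ran from 0.0043 to 0.12 for the culture and from -0.16 to -0.03 for the plasmid, and members 1.5-fold apart numbered 7 to 9 and 2 to 5. Without either ARHGAP8 array LIPA was at 1.76, MITF at 0.33 and TSC2 at -0.33. Without either empty-vector array they were at 0.51, 0.97 and -1.30. For the plasmid TPP1 was at -0.19 without either 3D array and at -1.27 without either 2D array. No paired analysis was possible because each group has 1 array and so no replicate numbers to pair, although the additive model already compares the cultures within each line.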
